A study of Mus musculus with 24 samples.

Results

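The 10 genes described here, Srebf1, Mlxipl, Fasn, Acaca, Acly, Scd1, Scd2, Elovl6, Me1 and Pnpla3, carry out or control the synthesis of fatty acids from simple carbon units. They were chosen by symbol, with earlier results of these data known, and all 10 were listed in each of the 3 expression tables of the study, which share 16695 symbols. The 24 libraries were made from the livers of adult male BALB/c mice. In the hepatocyte table, 3 libraries each came from primary hepatocytes (Pri-Hep), isolated by Percoll density and depleted of EpCAM+ cells, and from hepatocyte organoids (Hep-Orgs) grown in Matrigel in Hep-Med with DAPT (which blocks Notch signalling) and the glucocorticoid dexamethasone, at passages P1, P5 and P10. In the cholangiocyte table, the Cho-Orgs (cholangiocyte organoids) were sequenced at P0, at P5 and at P10, in 3 libraries each. These were grown from EpCAM+ liver cells in Matrigel in a medium whose additions included Wnt3a, Noggin and forskolin. The third table held Smart-Seq libraries of P0 Hep-Orgs picked by shape, 1 for grape-like, 1 for intermediate and 1 for round-like organoids. The study describes these shapes in plain Hep-Med, before DAPT and dexamethasone were added, so that medium as well as passage separates these libraries from the other Hep-Orgs. The replicates are given as mice in one place of the study and as independent cultures in another, so p-values measure the spread between libraries, whichever these are.

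Fatty acid synthesis begins with citrate, which leaves the mitochondrion and is split to acetyl-CoA by ATP citrate lyase. Acetyl-CoA is carboxylated to malonyl-CoA, fatty acid synthase joins these units into palmitate with NADPH as the reductant, and elongases and desaturases then turn palmitate into longer and monounsaturated chains. In the liver the pathway is known for its control by feeding, through the transcription factors SREBP-1 and ChREBP, which answer to insulin and to sugar respectively.

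Some facts of the series bear on every result. Levels are given as FPKM, that is, sequenced fragments divided by gene length and by library size, so they can be compared between genes, and log2 fold changes are on the scale of log2(FPKM + 1). On this scale the change of a gene at a few FPKM or less is smaller than the ratio of its levels. Sizes of log2 fold change are therefore not comparable between low and high genes. The hepatocyte libraries held 14068906 to 27160365 recovered fragments. The depth was estimated at about 37410000 to 39840000 fragments in the cholangiocyte table, and at 39960000 to 40350000 in the Smart-Seq table, where the steps of the grape-like and intermediate libraries also allow a lower depth. In the libraries labelled Pri-Hep, 8 cholangiocyte markers summed to 3852 to 3947 FPKM and 10 hepatocyte markers to 609 to 643 FPKM. The Hep-Orgs of that table had 3798 to 4018 FPKM and 623 to 672 FPKM for the same lists, so in both the cholangiocyte markers exceeded the hepatocyte markers, which goes against the hepatocyte label of all 12 libraries. Pri-Hep and Hep-Orgs are used below as names of libraries so labelled. Alb had 106 to 121 FPKM, Krt19 had 229 to 241 FPKM and Epcam had 265 to 275 FPKM in the libraries labelled Pri-Hep. In Cho-Orgs the hepatocyte list summed to 7255 to 8348 FPKM at P0, 204 to 250 FPKM at P5 and 77.8 to 83.3 FPKM at P10, while 5 proliferation genes summed to 134 to 206 FPKM, 76.3 to 81.7 FPKM and 11.2 to 12.7 FPKM. The cholangiocyte list summed to 5099 to 6522 FPKM, 3512 to 3647 FPKM and 3345 to 3375 FPKM at these passages, and 6 macrophage markers to 42.2 to 48.3 FPKM, 72.1 to 77.3 FPKM and 10.1 to 10.5 FPKM. These lists moved with passage beside the genes described below, and their part in those changes was not tested. In Cho-Orgs at P0 the hepatocyte list exceeded the cholangiocyte list, which goes against reading these libraries as cholangiocytes only. Their cholangiocyte list was at the same time higher than at the later passages. The study itself reports strong Alb in P0 Cho-Orgs and a marked drop of it with passaging. All changes from P0 given below start from these P0 libraries. In bulk libraries fewer cells of a type and less RNA per cell cannot be told apart.

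Of the 10 genes, 8 had entries in RefSeq's table of gene starts (build GRCm38.p6), with 12 starts in all, and Scd1 and Scd2 had none. The 150 bases before the start are printed for Fasn, Acly and Mlxipl, as examples of the 3 motifs marked, from genes that all fell in Cho-Orgs. Windows not printed, such as those of Srebf1, Me1 and Pnpla3, hold matches too. The windows are chr11:120824548-120824697 on the minus strand, chr11:100528001-100528150 on the minus strand and chr5:135089740-135089889 on the plus strand, and each is read 5′ to 3′ toward the gene. Capitals mark matches on either strand to CCAAT, to the GC box GGGCGG, or to the E-box CACGTG.
Fasn: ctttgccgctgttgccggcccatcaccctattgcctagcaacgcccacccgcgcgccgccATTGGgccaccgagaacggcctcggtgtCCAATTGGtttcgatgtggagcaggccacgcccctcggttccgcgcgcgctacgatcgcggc
Acly: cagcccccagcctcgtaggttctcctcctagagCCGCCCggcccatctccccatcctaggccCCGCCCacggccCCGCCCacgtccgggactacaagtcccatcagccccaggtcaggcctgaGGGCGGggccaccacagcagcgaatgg
Mlxipl: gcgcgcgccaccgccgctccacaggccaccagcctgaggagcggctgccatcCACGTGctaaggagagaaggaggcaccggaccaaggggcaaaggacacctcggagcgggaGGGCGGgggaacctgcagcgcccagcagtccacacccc
The Fasn window held CCAAT on both strands, with 2 of the matches overlapping in the palindrome CCAATTGG, and the Acly window held the GC box 4 times. Mlxipl had CACGTG with its first base 98 bases before the start. Over the 250 bases before the start, CCAAT was present at 6 of the 12 starts of these genes and at 33.8% of 32851 starts in the table. The GC box was present at 6 of 12 and 32.7%, CACGTG at 1 of 12 and 6.02%, and the sterol regulatory element TCACNCCAC at 1 of 12, a second start of Mlxipl, and 1.05%. A match is a description of the letters and not a bound site.

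Srebf1, Fasn, Acaca and Acly all lie on chromosome 11 of mm10. Srebf1 (ENSMUSG00000020538) runs from 60199089 to 60222581, Acaca (ENSMUSG00000020532) from 84129672 to 84401651, Acly (ENSMUSG00000020917) from 100476353 to 100528000 and Fasn (ENSMUSG00000025153) from 120805846 to 120824547. Scd2 (ENSMUSG00000025203) and Scd1 (ENSMUSG00000037071) lie close together on chromosome 19, from 44293676 to 44306864 and from 44394451 to 44407709. Mlxipl (ENSMUSG00000005373) is on chromosome 5 from 135089890 to 135138382 and Elovl6 (ENSMUSG00000041220) on chromosome 3 from 129532355 to 129638495. Me1 (ENSMUSG00000032418) is on chromosome 9 from 86581371 to 86695953, and Pnpla3 (ENSMUSG00000041653) on chromosome 15 from 84167837 to 84187236.

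In Cho-Orgs most of these genes were lower at later passages. The comparison asks how cells grown from EpCAM+ cells alter over long culture. From P0 to P10, 8 of the 9 tested members fell and 1 rose, Me1, whose rise depended on the scaling as given below. Pnpla3 did not reach the level needed for testing, an FPKM of 1 in 3 libraries. By limma with Benjamini-Hochberg adjustment over 11593 genes, all 9 passed the threshold of 0.05, against 72.3% of all genes tested, of which 41% of the tested genes were higher and 31.3% lower. From P0 to P5, 6 members fell and 1 rose (background 56.6%, with 34% higher and 22.6% lower), and from P5 to P10, 4 fell and 1 rose (background 61.5%, with 31% higher and 30.5% lower). Their median log2 fold change was -0.49, -0.11 and -0.60 from P0 to P5, from P5 to P10 and from P0 to P10, beside 0.06, 0.0055 and 0.07 over all genes. Without any single replicate number or library, 7 to 9 of the 9 members passed from P0 to P10, 3 to 8 from P0 to P5 and 2 to 5 from P5 to P10. The lowest counts came without replicate 3 of every group in each of these comparisons. Rescaling by median ratios moved the share of higher genes among all genes called from P0 to P5 from 60.0% to 48.7%.

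**Figure D1:**
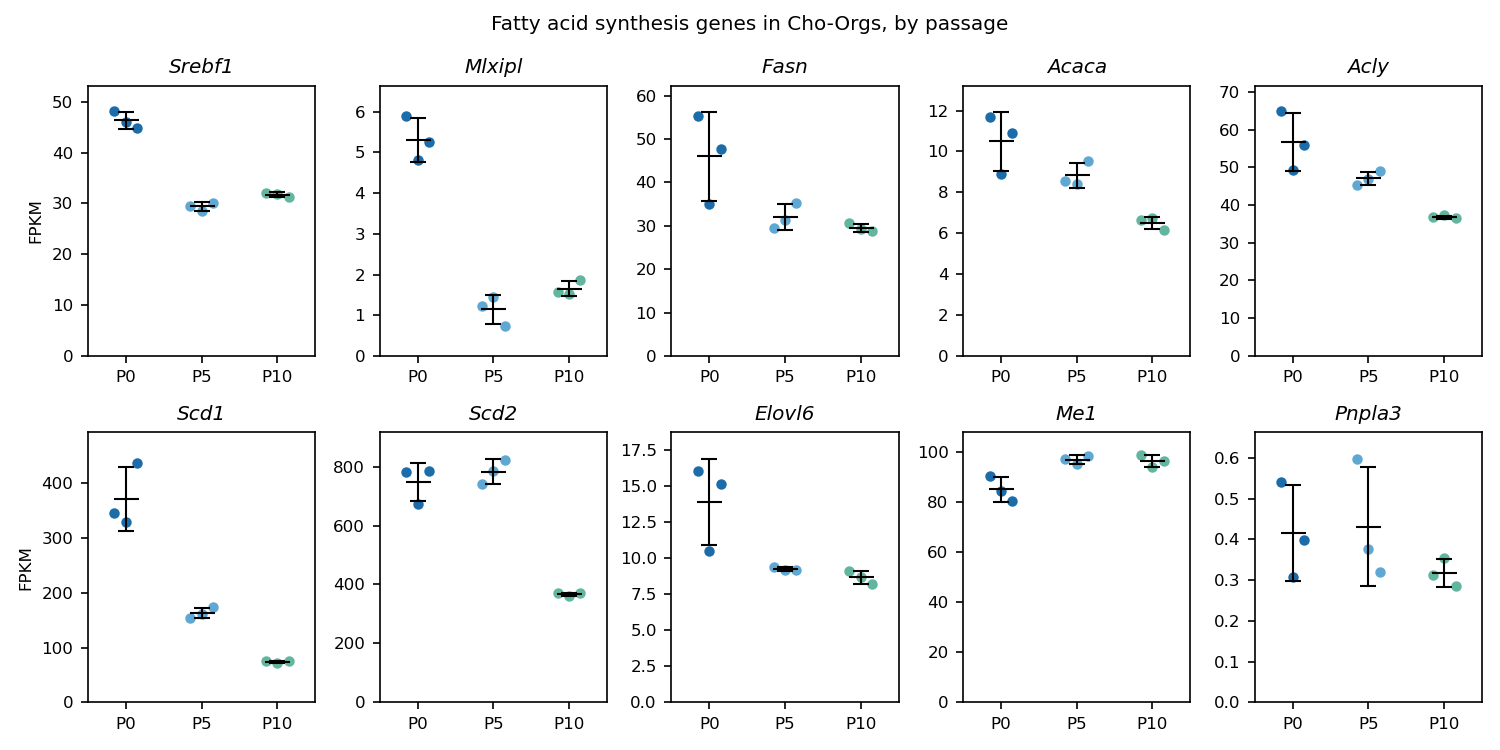
FPKM (vertical axis, from 0) of each fatty acid synthesis gene in the 3 libraries of Cho-Orgs at P0, P5 and P10; points are libraries, and the bars give the mean ± SD of n = 3. Scd1 steps down at both intervals, Scd2 falls only between P5 and P10, Srebf1 and Mlxipl are lowest at P5, and Me1 lies higher at P5 and P10 than at P0.

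Srebf1 encodes SREBP-1, the transcription factor that switches on most lipogenic enzymes. Its levels at P0 were 48.2, 46.0 and 44.9 FPKM. At P5 they were 29.6, 28.5 and 30.2 FPKM, and at P10 they were 32.1, 32.0 and 31.2 FPKM. All P0 libraries stood above the other passages, and the P10 libraries stood slightly above those at P5. The log2 fold change of Srebf1 at P5 against P0 was -0.64 (SE 0.0458, adjusted p = 3.04e-06), and its mean at P5 was 63.5% of that at P0. The later difference, P10 against P5, was 0.11 (95% confidence interval 0.0031 to 0.21, adjusted p = 0.0692), which did not pass the threshold in the fit used here. It passed when low genes were kept (adjusted p = 0.0446) and when only these 2 groups were fitted (adjusted p = 0.0243).

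Mlxipl encodes ChREBP, the factor that answers to sugar. It had 5.88, 4.81 and 5.25 FPKM at P0, 1.22, 1.46 and 0.742 FPKM at P5, and 1.58, 1.51 and 1.87 FPKM at P10. The P0 libraries lay well apart from all others, and the highest P5 library lay just under the lowest P10 library. The mean at P0 was 4.66 times that at P5, and the log2 fold change was -1.57 (SE 0.124, adjusted p = 5.71e-06). The rise of 0.32 from P5 to P10 was near the threshold (SE 0.124, adjusted p = 0.0457). It was not called with the replicate number as a block (adjusted p = 0.0670), without the filter on low genes (adjusted p = 0.111), or when any of 5 of the 6 libraries compared was left out alone (adjusted p up to 0.156). Without P5 replicate 3 it was 0.18, and without replicate 3 of every group it was 0.12.

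Both regulators thus had their largest change between P0 and P5. The 5 enzymes of chain synthesis and its supply differed in when they changed. Acly, Acaca and Fasn make acetyl-CoA, malonyl-CoA and palmitate, Elovl6 extends palmitate to stearate, and Me1, malic enzyme, supplies NADPH.

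Acly had 64.8, 49.4 and 55.8 FPKM at P0, 45.4, 46.9 and 48.9 FPKM at P5, and 36.7, 37.2 and 36.5 FPKM at P10. The 3 passages did not overlap, although the lowest P0 library lay close to the highest P5 library. Acly fell by 0.35 in log2 between P5 and P10 (SE 0.0841, adjusted p = 0.00527), a call lost without replicate 3 (adjusted p = 0.0881). From P0 to P5 it fell by 0.25 (adjusted p = 0.0265), a call that was lost without the filter on low genes (adjusted p = 0.0574) and without replicate 1 (adjusted p = 0.175) or replicate 3 (adjusted p = 0.119) of every group. The size of this difference rested in part on 1 library, since Acly fell by 0.15 without P0 replicate 1 and by 0.13 without replicate 1 of every group. Without P0 replicate 3, P5 replicate 1 or P5 replicate 2 alone the call was lost too (adjusted p = 0.0523, 0.0855 and 0.0655). The same held when only P0 and P5 were fitted (adjusted p = 0.0652).

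Acaca, acetyl-CoA carboxylase 1, is the committed step of the pathway. Its levels were 11.7, 8.87 and 10.9 FPKM at P0, 8.57, 8.41 and 9.52 FPKM at P5, and 6.63, 6.74 and 6.16 FPKM at P10. P0 and P5 overlapped, and P10 lay below both. The difference from P0 to P5 was -0.22 (95% confidence interval -0.42 to -0.01, adjusted p = 0.0647), which passed the threshold after rescaling by median ratios (-0.29, adjusted p = 0.0164) and without P0 replicate 2 (-0.32, adjusted p = 0.00293). Acaca fell by 0.39 between P5 and P10 (SE 0.0910, adjusted p = 0.00439), and this call was lost without replicate 3 (adjusted p = 0.0864).

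Fasn encodes the fatty acid synthase that builds palmitate. It had 55.3, 34.99 and 47.7 FPKM at P0, 29.5, 31.3 and 35.3 FPKM at P5, and 30.6, 29.2 and 28.9 FPKM at P10. The second P0 library was under the third P5 library, so that these groups overlapped, whereas P0 and P10 did not. Between P0 and P5 Fasn fell by 0.49 in log2 (SE 0.138, adjusted p = 0.0130), and the call was lost without replicate 1 (-0.29, adjusted p = 0.121) or replicate 3 (adjusted p = 0.0788) of every group, and without P5 replicate 1 alone (adjusted p = 0.0512). Its difference of -0.11 at P10 against P5 was within the spread (95% confidence interval -0.42 to 0.20, adjusted p = 0.524).

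Elovl6 had the same shape, with 16.1, 10.5 and 15.2 FPKM at P0, 9.42, 9.21 and 9.17 FPKM at P5, and 9.15, 8.69 and 8.19 FPKM at P10. All P0 libraries were higher than every later one. It fell by 0.52 from P0 to P5 (SE 0.126, adjusted p = 0.00600), which was not called without replicate 1 (adjusted p = 0.0508) or replicate 3 (adjusted p = 0.0926). The later difference of -0.09 did not pass the threshold (95% confidence interval -0.37 to 0.20, adjusted p = 0.576).

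Over the whole span from P0 to P10, these 4 enzymes ended with close to equal changes. The log2 fold change was -0.60 for Acly (SE 0.0841, adjusted p = 0.000116), -0.61 for Acaca (SE 0.0910, adjusted p = 0.000189), -0.60 for Fasn (SE 0.138, adjusted p = 0.00317) and -0.60 for Elovl6 (SE 0.126, adjusted p = 0.00163). Their mean levels at P10 were 65.0%, 62.1%, 64.3% and 62.3% of those at P0, in that order. The call of Fasn was lost without replicate 3 (adjusted p = 0.0519). P0 replicate 2 was the lowest of the P0 libraries for 8 of the 10 members and had the least of the proliferation genes, 134 FPKM against 206 and 155 FPKM. It also had the least of the hepatocyte list, 7255 FPKM against 8348 and 7770 FPKM. Its cholangiocyte list was the highest, 6522 FPKM against 5099 and 5261 FPKM, as was its macrophage list, 48.3 FPKM against 42.2 and 42.8 FPKM. The part of these was not tested.

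Me1 went the other way. Its levels were 90.3, 84.4 and 80.4 FPKM at P0, 96.9, 95.1 and 98.4 FPKM at P5, and 98.7, 93.7 and 96.2 FPKM at P10. The P0 libraries were all below the others, which overlapped with each other. The log2 fold change was 0.19 from P0 to P5 (SE 0.0511, adjusted p = 0.0111) and 0.18 from P0 to P10 (SE 0.0511, adjusted p = 0.0103). After rescaling by median ratios these were 0.11 (adjusted p = 0.0834) and 0.09 (adjusted p = 0.124), and neither passed the threshold. The first was also lost without replicate 2 (adjusted p = 0.0592) or replicate 3 (adjusted p = 0.171), and the second without replicate 3 (adjusted p = 0.132). At P10 against P5 the difference was -0.0089 (95% confidence interval -0.12 to 0.11, adjusted p = 0.893).

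**Figure D2:**
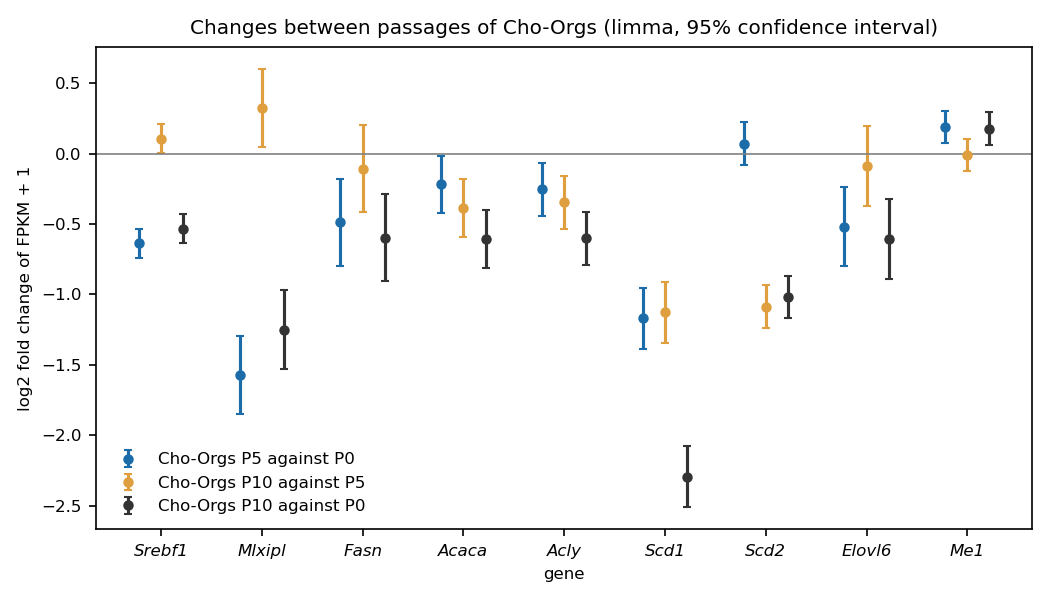
Log2 fold change of FPKM + 1 between passages of Cho-Orgs for the 9 tested genes, with 95% confidence intervals from limma that are not adjusted for multiple tests. The points for Acly, Acaca, Fasn and Elovl6 from P0 to P10 lie between -0.61 and -0.60, Scd1 reaches -2.29, and Me1 lies above 0 from P0 to P5 and from P0 to P10.

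Scd1 and Scd2 encode stearoyl-CoA desaturases, which place the double bond in oleate and palmitoleate. Scd1 is the main form of the adult mouse liver, and Scd2 is known from brain and from the fetal liver. They were the 2 most abundant members in every Cho-Orgs library except at P10, where Me1 lay above Scd1. Scd1 had 345, 328 and 437 FPKM at P0, 155, 161 and 173 FPKM at P5, and 75.7, 71.8 and 74.7 FPKM at P10. No passages overlapped, and the mean at P0 was 4.997 times that at P10. Its log2 level dropped by 1.17 between P0 and P5 (SE 0.0962, adjusted p = 7.60e-06), by 1.13 from P5 to P10 (adjusted p = 8.49e-06) and by 2.29 over both (adjusted p = 3.19e-08), and each of these calls was kept without any single library.

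Scd2 was the most abundant member of all, with 781, 672 and 786 FPKM at P0, 739, 784 and 824 FPKM at P5, and 371, 361 and 370 FPKM at P10. P0 and P5 overlapped, and P10 lay far below both. The difference from P0 to P5 was 0.07 (95% confidence interval -0.08 to 0.22, adjusted p = 0.395), and its sign turned after rescaling by median ratios (-0.0076) and without P0 replicate 2 (-0.0033). Scd2 then fell by 1.09 in log2 to P10 (SE 0.0676, adjusted p = 1.13e-06), reaching 46.9% of its mean at P5.

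The balance of both desaturases can be read within a library, where it does not depend on the scaling. Scd2 made up 66.9% ± 2.55 (SD, n = 3) of the summed FPKM of Scd1 and Scd2 at P0, 82.8% ± 0.182 at P5 and 83.2% ± 0.195 at P10. The share was lower in each P0 library than in any other. It differed between the passages by an exact permutation test over 280 arrangements (p = 0.00357, the smallest this design can give), and P10 was 16.3 percentage points above P0. With 1 replicate number left out the difference was 14.97 to 17.6 percentage points, and the smallest p then possible was 0.0667, which each of these gave.

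**Figure D3:**
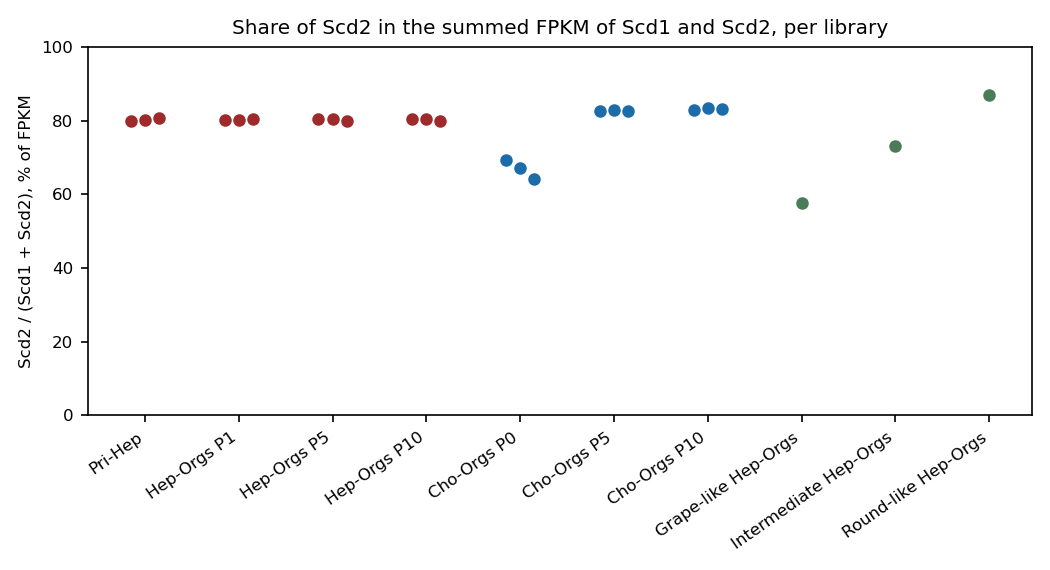
Share of Scd2 in the summed FPKM of Scd1 and Scd2, in percent, for each of the 24 libraries; red points are the hepatocyte table, blue points Cho-Orgs and green points the Smart-Seq libraries. Cho-Orgs at P0 average 66.9%, Cho-Orgs at P5 and P10 average 82.8% and 83.2%, the groups of the hepatocyte table average 80.2% to 80.3%, and the Smart-Seq libraries run from 57.6% to 87.0%.

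Pnpla3 encodes a lipid droplet protein that acts on triglyceride and is known as a target of SREBP-1. In Cho-Orgs it had 0.541, 0.308 and 0.397 FPKM at P0, 0.597, 0.375 and 0.321 FPKM at P5, and 0.312, 0.355 and 0.285 FPKM at P10. These are about 17 to 35 fragments per library, the passages overlapped, and no change was detectable at this depth.

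The genes most like Fasn and Scd1 over the 9 Cho-Orgs libraries were found from the root mean square difference of log2(FPKM + 1), each gene centred on its own mean. Closest to Fasn was Elovl6 (0.0781), followed by Rnpep (0.0916) and Cdt1 (0.0944), a DNA replication licensing factor. Cdt1 had mean levels of 15.3, 9.77 and 8.59 FPKM at P0, P5 and P10. Closest to Scd1 were Aldh1b1 (0.123), a mitochondrial aldehyde dehydrogenase, Upp1 (0.132), a uridine phosphorylase, and Tox (0.153), a nuclear protein. Aldh1b1 had mean levels of 12.6, 4.84 and 2.00 FPKM.

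Around the members, 48 further genes of the pathway were examined, of which 44 were tested in Cho-Orgs. From P0 to P5, 29 of the 44 passed the threshold, 9 higher and 20 lower. From P5 to P10, 30 passed, 11 higher and 19 lower, and from P0 to P10, 31 passed, 9 higher and 22 lower. These are 65.9%, 68.2% and 70.5% of the list, beside a background of 56.6%, 61.5% and 72.3%. By direction the lower genes were 45.5%, 43.2% and 50% of the list, beside 22.6%, 30.5% and 31.3% of all genes, and the higher genes were 20.5%, 25% and 20.5%, beside 34%, 31% and 41%. These shares hold for the main scaling. With median ratios 3367, 3627 and 4199 of all 11593 genes were lower, against 2621, 3533 and 3634 in the fit used here. The list is not given by direction for that scaling. The median log2 fold change of the list was -0.09, -0.08 and -0.19 in the fit used here.

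Of the 15 regulator genes tested, 5 rose and 4 fell from P0 to P10 (33.3% and 26.7%), beside 41% higher and 31.3% lower over all genes. Among the regulators of SREBP, Insig1, which holds it in the endoplasmic reticulum and is itself a target, fell by 1.26 in log2 between P5 and P10 (adjusted p = 7.02e-07), from 60.0 ± 1.57 to 24.5 ± 1.02 FPKM (SD, n = 3). Mbtps2, a protease that releases SREBP, rose by 0.45 from P0 to P10 (adjusted p = 2.22e-05). Mid1ip1, which activates acetyl-CoA carboxylase, rose by 0.71 over the same span (adjusted p = 3.35e-06), from 53.4 ± 4.47 to 88.1 ± 1.89 FPKM. Its relative Thrsp was at 7.09 ± 0.532, 1.17 ± 0.541 and 0.0241 ± 0.000240 FPKM at P0, P5 and P10, and fell at each interval (adjusted p = 8.34e-06 and 0.000353), ending near the level of a single fragment. The 2 genes of the liver X receptors moved apart from P0 to P5, as Nr1h2 rose by 0.42 (adjusted p = 0.000104) and Nr1h3 fell by 1.18 (adjusted p = 3.78e-06). Nr1h3 was at 1.91 ± 0.193, 0.278 ± 0.0327 and 0.892 ± 0.175 FPKM at P0, P5 and P10, and rose by 0.56 at the second interval (adjusted p = 0.000386), between means under 1 FPKM. The P0 libraries, where Thrsp and Nr1h3 were highest, were enough for both genes to pass the filter. Their falls from P0 are to be read with that limit.

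Of the 8 genes listed under precursor and NADPH supply, with Acacb placed among them, 5 fell and none rose from P0 to P10 (over all genes, 31.3% were lower and 41% higher), and 6 fell from P5 to P10 (30.5% of all genes). Acss2, which makes acetyl-CoA from acetate, fell by 1.13 from P5 to P10 (adjusted p = 3.10e-07), and Acacb, the acetyl-CoA carboxylase of the mitochondrial surface, fell by 1.06 (adjusted p = 6.35e-06). Of the 10 elongases, desaturases and partner enzymes tested, 7 fell and none rose from P0 to P10, beside the same 31.3% lower and 41% higher over all genes. Elovl2, an elongase of polyunsaturated chains, had 10.04 ± 0.818 FPKM at P0 and 0.0597 ± 0.0239 FPKM at P5, and at P10 it was at 0 in 2 libraries and at 0.0067 FPKM in the other. Elovl2 passed the filter through its P0 libraries alone. Elovl5, another such elongase, rose by 0.31 from P0 to P5 (adjusted p = 0.000308).

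Genes that use the fatty acids were mixed. From P0 to P10, 6 of 11 genes of acyl-CoA and triglyceride formation and storage fell and 4 rose, where 31.3% of all genes were lower and 41% higher. Gpam, the first acyltransferase of glycerolipid synthesis, fell by 1.72 (adjusted p = 4.93e-09), and Dgat2, which completes triglyceride, fell by 1.69 (adjusted p = 3.08e-07). Plin2, a coat protein of lipid droplets, rose by 0.61 (adjusted p = 4.50e-05), and Acsl4, an acyl-CoA synthetase of arachidonate, rose by 0.48 (adjusted p = 8.29e-06). The lipase gene Pnpla2 rose by 0.40 at the second interval (adjusted p = 0.000289). The acyl-CoA synthetase gene Acsl5 rose by 0.58 from P0 to P5 (adjusted p = 0.000181).

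In the hepatocyte table the comparison asks whether Hep-Orgs kept the expression of Pri-Hep over passages. Both the libraries labelled Pri-Hep and those labelled Hep-Orgs carry marker levels that go against a hepatocyte label, as given above, so a difference from hepatocytes may not be what these values measure. Proliferation genes summed to 12.8 to 13.5 FPKM in Pri-Hep and to 12.3 to 14.5 FPKM in Hep-Orgs, so the labels were not set apart by these either. None of the 9 tested members passed the threshold in any of the 7 comparisons of groups by limma. At an unadjusted p under 0.05, 3 of the 9 members passed in all Hep-Orgs against Pri-Hep, and 4 in P10 against P5, beside 8.79% and 11.5% of all genes. Of all 10986 genes tested, 0.0091% passed the adjusted threshold in P1 against Pri-Hep and in P5 against Pri-Hep, 0.0273% in P10 against P5 (0.0182% higher and 0.0091% lower), and 0% in the other comparisons. The log2 fold changes of all Hep-Orgs against Pri-Hep ran from -0.02 for Scd2 to 0.08 for Acaca. Of the 43 other pathway genes tested none passed either, with 5 at an unadjusted p under 0.05 (11.6% of them, beside the 8.79% of all genes).

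The order of levels was Scd2, Acly, Scd1, Me1, Srebf1, Fasn, Elovl6, Mlxipl, Acaca and Pnpla3. Elovl6 and Mlxipl, whose libraries lay at 9.13 to 10.3 and 7.73 to 9.43 FPKM, overlapped in this order. Scd2 had 399, 406 and 410 FPKM in Pri-Hep, 395, 393 and 398 FPKM at P1, 406, 389 and 391 FPKM at P5, and 415, 411 and 407 FPKM at P10. Its 4 groups overlapped in part, and its difference of all Hep-Orgs from Pri-Hep had a 95% confidence interval of -0.05 to 0.02. Acly was the second, with 140 to 146 FPKM over the 12 libraries, and its difference had an interval of -0.02 to 0.05. Scd1 lay between 94.8 and 102 FPKM and Me1 between 78.7 and 83.7 FPKM, with intervals of -0.05 to 0.03 and -0.0049 to 0.08.

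Srebf1 had 21.1, 19.9 and 21.3 FPKM in Pri-Hep, 21.4, 22.5 and 22.8 FPKM at P1, 23.0, 23.5 and 22.6 FPKM at P5, and 20.5, 19.998 and 20.9 FPKM at P10. The P5 libraries were all above those of Pri-Hep and of P10. The log2 fold change was 0.14 for P5 against Pri-Hep (SE 0.0329, adjusted p = 0.189) and -0.16 for P10 against P5 (SE 0.0329, adjusted p = 0.132). On the recovered fragments, limma-voom gave 0.15 (adjusted p = 0.0434) and -0.17 (adjusted p = 0.0170), so that only with this method were they called.

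Fasn had 12.7, 12.3 and 12.9 FPKM in Pri-Hep, 13.5, 13.4 and 13.5 FPKM at P1, 13.7, 13.3 and 13.3 FPKM at P5, and 12.4, 12.4 and 13.3 FPKM at P10. P1 and P5 were above Pri-Hep without overlap, and P10 overlapped it. For all Hep-Orgs against Pri-Hep the difference was 0.06 (95% confidence interval 0.0015 to 0.11, adjusted p = 0.562). Acaca had 6.18, 5.96 and 6.02 FPKM in Pri-Hep and 6.17 to 6.63 FPKM in the Hep-Orgs, with a difference of 0.08 (95% confidence interval 0.02 to 0.14, adjusted p = 0.461). One Hep-Orgs library at P1 lay just inside the range of Pri-Hep.

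Mlxipl had 9.43, 8.35 and 8.24 FPKM in Pri-Hep and 7.73 to 9.42 FPKM in the Hep-Orgs, a full overlap, and its difference had a 95% confidence interval of -0.09 to 0.10. For Elovl6 the interval was -0.03 to 0.10. Pnpla3 had 0 to 13 fragments per library, at most 0.463 FPKM, and was not tested. Scd2 made up 80.3% ± 0.439 of both desaturases in Pri-Hep and 80.2% ± 0.188, 80.2% ± 0.301 and 80.3% ± 0.336 at P1, P5 and P10. The share did not differ between these groups beyond their spread (exact permutation test, p = 0.946).

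**Figure D4:**
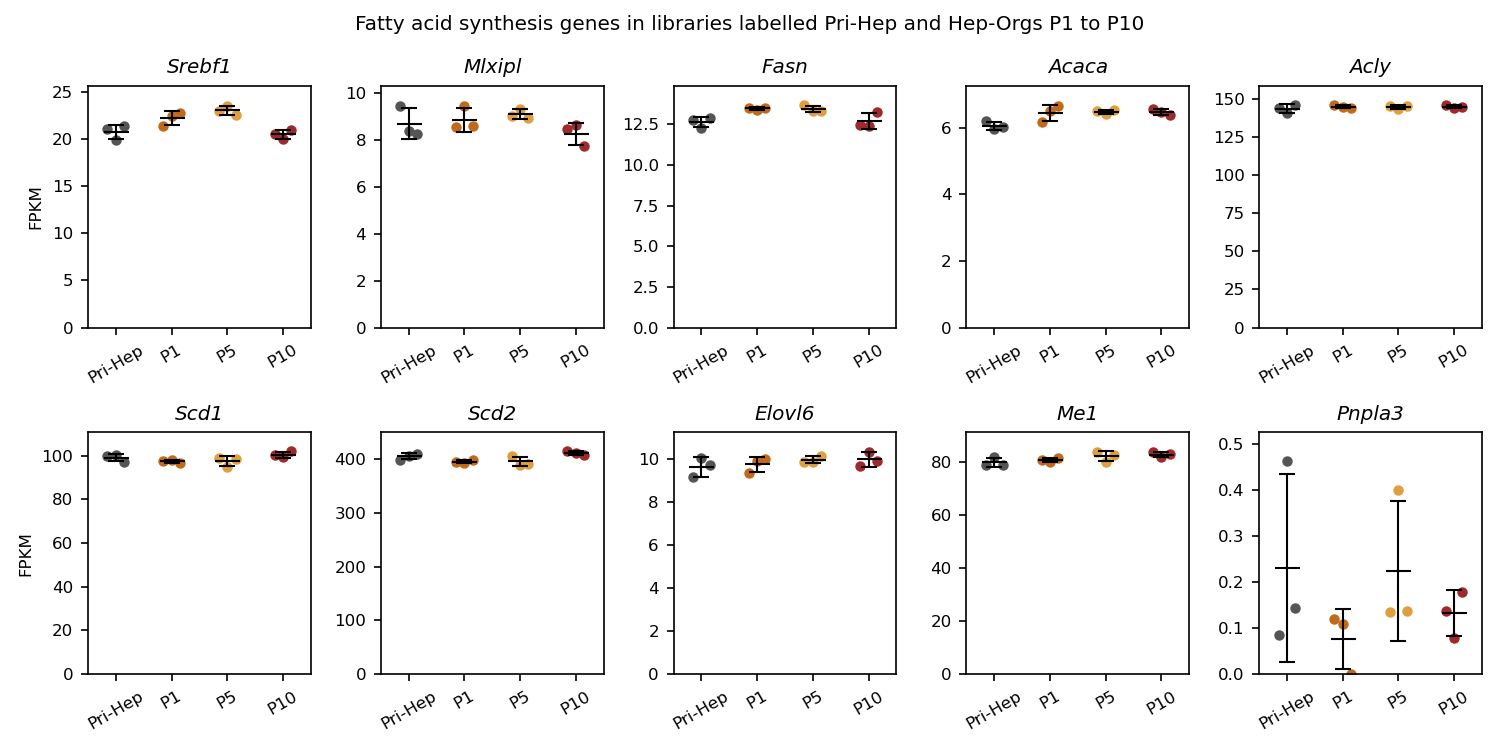
FPKM (vertical axis, from 0) of each fatty acid synthesis gene in the 3 libraries labelled Pri-Hep and in Hep-Orgs at P1, P5 and P10; points are libraries, and the bars give the mean ± SD of n = 3. The groups lie at nearly one height for each gene except Pnpla3, which has at most 13 fragments in a library.

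The tables were normalized separately, so levels between them are set side by side without a test. Mlxipl lay at 7.73 to 9.43 FPKM in the hepatocyte table and at 0.742 to 5.88 FPKM in Cho-Orgs. Acly lay at 140 to 146 FPKM against 36.5 to 64.8 FPKM. Fasn lay at 12.3 to 13.7 FPKM against 28.9 to 55.3 FPKM, and Srebf1 at 19.9 to 23.5 FPKM against 28.5 to 48.2 FPKM. Me1 ranges were close, at 78.7 to 83.7 and 80.4 to 98.7 FPKM.

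The Smart-Seq libraries compare the 3 shapes of Hep-Orgs at P0, with 1 library each and hence with no replicate check. Scd1 and the other lipogenic genes differed in opposite directions between the round-like and the grape-like library. Past a log2 ratio of 1, 3 of the 10 members were higher in the round-like library and 1 was lower, against 8.95% and 13.1% of 12417 genes, and the median ratio of the members was 0.69 beside 0.13 over all genes. The grape-like library had 7686 FPKM of 6 macrophage markers, against 2258 FPKM (intermediate) and 1172 FPKM (round-like). Its hepatocyte list summed to 6298 FPKM, against 10806 and 1450 FPKM, and its cholangiocyte list to 877 FPKM, against 3454 and 2834 FPKM. In the grape-like library the macrophage list thus exceeded the hepatocyte list, and in the round-like library the cholangiocyte list exceeded it. This goes against reading either library as hepatocytes only. Proliferation genes summed to 152, 137 and 264 FPKM. The part of these cell markers in the ratios was not tested.

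Read from grape-like through intermediate to round-like, Me1 had 21.3, 48.8 and 73.5 FPKM, a log2 ratio of round-like to grape-like of 1.74. Elovl6 had 10.96, 17.0 and 29.2 FPKM in the same order, and its ratio was 1.33. Both rose in step from grape-like to round-like, as did Scd2, which had 246, 448 and 596 FPKM and a ratio of 1.27. Scd1 ran the other way, with 181, 166 and 89.1 FPKM and a ratio of -1.02. Scd2 was thus 57.6%, 73.0% and 87.0% of both desaturases.

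Acly (41.5, 42.2 and 69.8 FPKM), Fasn (40.5, 41.6 and 58.2 FPKM) and Acaca (7.16, 7.06 and 10.3 FPKM) were near equal in the grape-like and intermediate libraries and higher in the round-like library, with ratios to grape-like of 0.74, 0.51 and 0.46. Rescaling by median ratios lowered these to 0.59, 0.37 and 0.33. It also moved the ratio of Scd1 in round-like to intermediate from -0.89 to -1.07, past a size of 1. The regulators peaked in the intermediate library instead. Srebf1 had 36.5, 65.5 and 57.8 FPKM, and Mlxipl had 5.27, 15.2 and 6.40 FPKM. The log2 ratio of intermediate to grape-like was 1.37 for Mlxipl and 1.16 for Me1, the 2 members past 1 in that comparison (17.3% of all genes, with 7.32% higher and 9.94% lower), and the ratio of round-like to intermediate was -1.13 for Mlxipl. In the last comparison, where 6.69% of all genes were past 1 (2.66% higher and 4.03% lower), Pnpla3 was past 1 as well, at 1.05, but the counting interval of 0.34 to 1.76 reached under 1, and the intermediate library held about 19 of its fragments. Pnpla3 had 0.513, 0.299 and 1.69 FPKM in that order of shapes, and its round-like level was its highest in any library of the 3 tables.

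**Figure D5:**
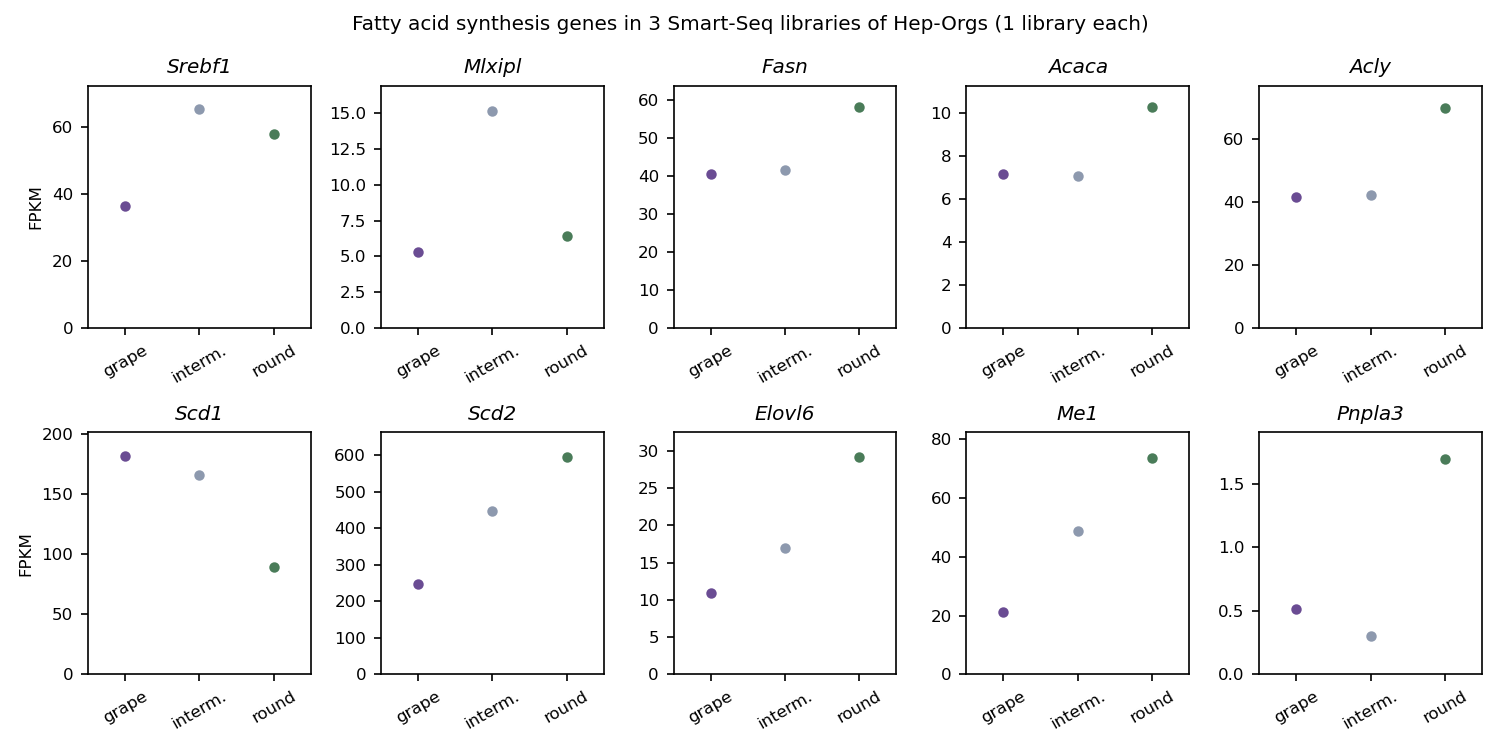
FPKM (vertical axis, from 0) of each fatty acid synthesis gene in the Smart-Seq libraries of the 3 shapes, 1 point per library and without error bars. Me1, Elovl6 and Scd2 increase from grape-like to round-like, Scd1 decreases, and Srebf1 and Mlxipl are highest in the intermediate library.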

How the data were processed

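The authors deposited FPKM tables for 12 hepatocyte, 9 Cho-Orgs and 3 Smart-Seq libraries, 24 in all. Per the labels' processing notes, the tools were featureCounts 2.0.3 and edgeR 3.40.2 on build mm10, and the aligner is not given in the sources used here. In the hepatocyte table FPKM times length gave whole fragments for 100% of values in each library (tolerance 0.05), and other depths were estimated from steps between low values and are approximate. Depth covers counting error only. Genes reaching 1 FPKM in 3 or more libraries were fitted as log2(FPKM + 1) with limma 3.58.1 in R 4.3.3 (eBayes with trend, two-sided, Benjamini-Hochberg over all genes, threshold 0.05), each table by itself. Shares were tested by exact permutation (numpy 2.4.6, Python 3.11.15). The fits were tested on simulated data. Alternatives were a pseudocount of 0.1, no filter, a mean FPKM of at least 5, TPM, median ratios, no trend, 2 groups only, a replicate block, limma-voom and left-out libraries. The members and lists were chosen with earlier results of these data known. All 10 members were named, with up to 4 pathway genes per direction and comparison that passed the threshold with groups that did not overlap, and the 3 genes most like Fasn and Scd1. Promoters were from RefSeq, GRCm38.p6. Legends of the study tie replicate numbers to mice, and the replicate block follows these. Same-numbered libraries of different groups had a median correlation of deviations of -0.0016 over 18 pairs in the hepatocyte table and -0.0063 over 9 pairs in the cholangiocyte table. No pairing was thus seen in the values. This cannot show that the libraries are unpaired, since libraries of 1 mouse need not share such deviations. No authors' fold changes were used. Within groups of the hepatocyte table, libraries differed by more than counting noise (chi-square per degree of freedom 1.90 to 3.04, median 2.17). Pairs from different groups had values of 1.80 to 4.36 (median 2.48), a range that overlapped in large part.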

Additional observations from a re-analysis of the deposited data

Results flagged for a closer look

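Chosen because every P10 library lay outside the range of the P5 libraries, on one side in Cho-Orgs and on the other in Hep-Orgs, 4 genes went opposite ways between P5 and P10. The share of all genes that meet this rule was not counted, so this number is not a result about these genes. Srebf1 had a log2 fold change of 0.11 in Cho-Orgs and -0.16 in Hep-Orgs, and Mlxipl had 0.32 and -0.12. For Scd1 it was -1.13 and 0.04, and for Scd2 it was -1.09 and 0.06. The difference between the organoids was not tested, since the tables were normalized separately. In Cho-Orgs the changes of Scd1 and Scd2 passed the threshold. That of Srebf1 did not (adjusted p = 0.0692), and that of Mlxipl did (adjusted p = 0.0457) but not with the replicate block (adjusted p = 0.0670) or when any of 5 of the 6 libraries compared was left out alone. In Hep-Orgs none of these changes passed the threshold by limma, and limma-voom called that of Srebf1.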

How the results depend on the processing

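Over all alternatives other than left-out libraries, the counts of members called kept within 1.5 times of those reported except with limma-voom, which called 1 member, Srebf1, in Hep-Orgs P5 against Pri-Hep and 1 member, Srebf1, from P5 to P10. With replicates or libraries left out, the members called in Cho-Orgs numbered 3 to 8 from P0 to P5, 2 to 5 from P5 to P10 and 7 to 9 from P0 to P10, and the pathway genes called from P0 to P5 numbered 17 to 23. Fewer libraries were then fitted. Scd2 from P0 to P5 was -0.0076 with median ratios and -0.0057 to 0.14 without a replicate number, Me1 from P5 to P10 was -0.027 to 0.0029, and the Scd2 share of P10 against Pri-Hep was -0.287 to 0.446 percentage points. In Cho-Orgs that share changed by 14.97 to 17.6 percentage points from P0 to P10. With the replicate block, Mlxipl from P5 to P10 was 0.32 with an adjusted p of 0.0670, and it was the 1 member whose call was lost. In the hepatocyte table the replicate block left 0 genes called in each comparison, against at most 3 without it (limma, with 449 to 1246 at an unadjusted p under 0.05). Genes called in Cho-Orgs numbered 6381, 6939 and 8278 with the replicate block and 6559, 7132 and 8384 without it, from P0 to P5, P5 to P10 and P0 to P10. Depth limits Pnpla3, with at most 13 fragments in the hepatocyte table.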
